A study of Mus musculus with 36 samples.

Results

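The genes described here encode enzymes and transporters of glucose metabolism: glucose uptake, glycolysis, lactate production, pyruvate dehydrogenase, the pentose phosphate pathway and glycogen turnover, together with the regulator Hif1a. They were chosen by name from a list of 42 gene symbols, and all 42 were in the count table, which holds 12795 genes. All 42 passed the filter on low counts, which removed no gene.

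Glycolysis splits glucose into pyruvate and yields ATP without oxygen, and lactate dehydrogenase turns the pyruvate into lactate. The pentose phosphate pathway branches off at glucose 6-phosphate and makes NADPH and ribose, and glycogen phosphorylase releases stored glucose for either route. In macrophages, inflammatory activation is known to raise glycolysis through HIF-1α, the oxygen-sensitive transcription factor encoded by Hif1a, and TFEB drives genes of lysosomes and autophagy.

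Macrophages were flow-sorted from mouse hearts 7 days after an ischemia of 90 min, which followed 7 days of tamoxifen, and polyA RNA was sequenced in 36 libraries. Sorting on CCR2, the chemokine receptor of monocytes that enter tissue from blood, gave a CCR2pos and a CCR2neg fraction. TFEB-TG samples carried a TFEB expression cassette behind a floxed stop sequence, and TFEB-wt samples carried no cassette. Cells with Cre are named mac-TFEB where they had the cassette and CX3CR1-Cre where they had none, and a Cre-neg group stood beside each of them. With 2 fractions this makes 8 groups, of 4 libraries each in TFEB-TG and 5 each in TFEB-wt. Cre was tamoxifen-inducible and driven by Cx3cr1, a gene of macrophages and monocytes. The series design states that Cre-neg samples lacked Cre, while the growth protocol lists this Cre and a Td-Tomato reporter for all animals, and the sources used here do not give how Cre-neg cells were obtained. Nothing in the labels ties each library to its own animal, so p-values measure sample spread alone, which may be technical.

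Library totals ran from 13797484 to 32645783 counts with a median of 19676039.5. Tfeb reached 60.4 to 335 CPM (read counts scaled for library size and composition) in the mac-TFEB libraries and 4.42 to 11.5 CPM in the TFEB-wt libraries. In TFEB-TG Cre-neg libraries Tfeb lay between 12.4 and 51.0 CPM. Ccr2 was 302 to 1247 CPM in CCR2pos and 27.3 to 114 CPM in CCR2neg libraries. The 9 macrophage markers summed to 27365 to 42418 CPM. Markers of other heart cells were uneven between libraries. Fibroblast or cardiomyocyte markers summed to over 500 CPM in 3 libraries: TFEB-TG CCR2neg Cre-neg replicate 1 (516 CPM of cardiomyocyte and 582 CPM of fibroblast markers), TFEB-wt CCR2neg Cre-neg replicate 4 (607 CPM of fibroblast markers) and TFEB-wt CCR2pos Cre-neg replicate 4 (547 CPM of fibroblast markers). A limit of 300 CPM, considered first, takes in 3 more, TFEB-TG CCR2neg mac-TFEB replicate 1 and TFEB-wt CCR2neg CX3CR1-Cre replicates 2 and 4. That mac-TFEB library had the highest endothelial (396 CPM) and mural (192 CPM) sums of all 36. Both limits were chosen after seeing the data, and results are given without the 3 and without the 6 libraries.

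The enzymes differed widely in abundance per kilobase of exon. Averaged over 36 libraries, Aldoa, the aldolase that splits fructose 1,6-bisphosphate, led with 404 CPM per kilobase. Pkm, the pyruvate kinase of the last ATP-forming step, followed with 179 CPM per kilobase. Taldo1, the transaldolase of the non-oxidative pentose phosphate branch, had 151 CPM per kilobase, and Ldha, the main muscle-type lactate dehydrogenase subunit, had 136 CPM per kilobase. The lowest were Fbp1, the gluconeogenic fructose bisphosphatase, at 0.781 CPM per kilobase and Rpia, the ribose 5-phosphate isomerase, at 0.364 CPM per kilobase. Gapdh, usually among the most abundant transcripts, had only 2.14 CPM per kilobase here. Of its transcript 88.0% has near-identical copies (at least 96% identity over 50 bases or more) in 63 other genes, so reads could be lost or split between them. The same limit touches Eno1 (85.6% of the transcript), Ldhb (76.8%), Pdhb (71.2%), Pgk1 (68.8%), Pkm (65.5%) and Pgam1 (43.1%), whose levels are uncertain.

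Several enzymes have more than 1 gene, and the share of each could be compared per kilobase. Aldoa made up 99.2 to 99.7% of the 2 aldolases measured, per kilobase, in every library. Hk3, a myeloid hexokinase, made up 55.6 to 69.4% of Hk1, Hk2 and Hk3 together. Ldha made up 83.0 to 93.2% of Ldha and Ldhb together. Of the Ldhb transcript 76.8% has a near-identical copy, against 7.7% for Ldha, so this share may be too high. Glycogen phosphorylase varied more. Pygl, the liver-type enzyme, supplied 17.6 to 25.6% of Pygl plus Pygb in TFEB-wt CCR2neg CX3CR1-Cre libraries and 32.7 to 50.9% in the matching Cre-neg libraries. These ranges did not overlap, nor did those of TFEB-wt CCR2pos, 22.6 to 27.1% in CX3CR1-Cre and 30.5 to 33.4% in Cre-neg libraries. In TFEB-TG CCR2neg the share was 24.6 to 34.3% in mac-TFEB and 35.9 to 52.9% in Cre-neg libraries, also separate. In TFEB-TG CCR2pos the ranges overlapped, at 21.8 to 31.7% and 27.8 to 39.5%.

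Glucose genes differed with Cre status in CCR2neg macrophages without the TFEB cassette. In CX3CR1-Cre against Cre-neg cells, 12 of 42 genes (28.6%) fell and none rose, where 2.6% of all genes passed the test, 1.63% lower and 0.969% higher (edgeR quasi-likelihood, adjusted p under 0.05). The median log2 difference was -0.35 over the 42 genes and 0.01 over all genes tested, and 37 of 42 values were negative. The genes that fell ran from phosphofructokinase to lactate dehydrogenase and also included glycogen phosphorylase and Hif1a. All libraries of this comparison lack the TFEB cassette.

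Pygl (ENSMUSG00000021069, chr12:70190811-70231488, minus strand, GRCm38), which releases glucose from glycogen, was at 40.7, 34, 27, 35.2 and 40.8 CPM in CX3CR1-Cre replicates 1 to 5. In Cre-neg replicates 1 to 5 it was at 62.9, 90.5, 64.2, 65.7 and 119 CPM. Every CX3CR1-Cre library lay below every Cre-neg library. Pygl fell by 1.18 on the log2 scale (SE 0.17), a 2.26-fold lower level (edgeR adjusted p = 2.4e-04). The brain-type enzyme Pygb did not pass (0.21, SE 0.12, edgeR adjusted p = 0.475).

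Among the first steps of glycolysis, 4 of 12 genes fell. Aldoa (ENSMUSG00000030695, chr7:126795234-126800751, minus strand) was at 938, 1044, 859, 944 and 1091 CPM in CX3CR1-Cre and at 1073, 1766, 1549, 1265 and 2171 CPM in Cre-neg libraries. The groups overlapped only between the highest CX3CR1-Cre and the lowest Cre-neg value, and Aldoa was lower in CX3CR1-Cre in all 5 same-numbered pairs. It fell by 0.68 (SE 0.13, edgeR adjusted p = 0.00344). Pfkp, the platelet-type phosphofructokinase of the committed step, was at 82.4 to 114 CPM against 115 to 166 CPM, without overlap. It fell by 0.46 (SE 0.11, edgeR adjusted p = 0.0115). Aldoc, the brain-type aldolase, fell by 1.00 (SE 0.27, adjusted p = 0.0392), from levels of 7.32 to 14.7 CPM in Cre-neg to 4.71 to 6.94 CPM. Tpi1, the triose phosphate isomerase, fell by 0.52 (SE 0.13, adjusted p = 0.0231). The hexokinases did not pass, nor did Pfkfb3 (0.20, SE 0.14) and Pfkfb4 (0.29, SE 0.13), which make the activator of phosphofructokinase and whose values were positive.

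Among the later steps of glycolysis, the phase that yields ATP, 3 of 5 genes fell and the others were negative. Pkm (ENSMUSG00000032294, chr9:59656368-59679375, plus strand) was at 714, 728, 602, 662 and 741 CPM in CX3CR1-Cre and at 813, 1344, 1372, 870 and 1517 CPM in Cre-neg libraries. The groups did not overlap, and Pkm fell by 0.78 (SE 0.15, edgeR adjusted p = 0.00286). Pgk1 (ENSMUSG00000062070, chrX:106187100-106203699, plus strand), the phosphoglycerate kinase, was at 6.56, 6.29, 6.13, 6.31 and 7.03 CPM against 9.57, 13.8, 12, 9.19 and 15.5 CPM. These ranges were also separate, and Pgk1 fell by 0.89 (SE 0.20, edgeR adjusted p = 0.00934). Eno1, the enolase, fell by 0.61 (SE 0.15, edgeR adjusted p = 0.0144), with ranges of 210 to 271 and 247 to 491 CPM that overlapped. Gapdh (-0.32, SE 0.18) and Pgam1, the phosphoglycerate mutase (-0.74, SE 0.29), did not pass.

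Beyond pyruvate, 1 of 3 genes of lactate handling and 1 of 4 genes around pyruvate dehydrogenase fell. Ldha (ENSMUSG00000063229, chr7:46841475-46855627, plus strand) was at 359, 376, 312, 327 and 373 CPM in CX3CR1-Cre and at 410, 614, 504, 454 and 685 CPM in Cre-neg libraries. No value overlapped, and Ldha fell by 0.61 (SE 0.13, edgeR adjusted p = 0.00742). Ldhb, the heart-type subunit (-0.51, SE 0.20), and the lactate exporter Slc16a3 (-0.70, SE 0.31) did not pass. Pdha1, the catalytic subunit gene of pyruvate dehydrogenase, was at 61.1 to 86.9 CPM against 93.2 to 114 CPM and fell by 0.40 (SE 0.11, adjusted p = 0.0300). Its exons share 603 bases with Map3k15 on the opposite strand, and the libraries kept no strand, so reads of the pair cannot be told apart.

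Hif1a (ENSMUSG00000021109, chr12:73901375-73947530, plus strand) was at 40.9, 48.1, 58.7, 38.8 and 48.4 CPM in CX3CR1-Cre and at 53.4, 77.7, 130, 54.2 and 90.3 CPM in Cre-neg libraries. It was lower in all 5 pairs but the groups overlapped, and it fell by 0.79 (SE 0.18, edgeR adjusted p = 0.0115). In the glycogen branch, the phosphoglucomutase named Pgm2 in the table also fell, by 0.54 (SE 0.15, adjusted p = 0.0469). This gene lies on chromosome 4 and RefSeq now names it Pgm1, the enzyme that links glycogen to glucose 6-phosphate. The table's Pgm1 lies on chromosome 5 and is RefSeq's Pgm2, known chiefly as a phosphopentomutase. None of the 7 pentose phosphate genes passed, and Taldo1 came nearest (-0.30, SE 0.09, edgeR adjusted p = 0.0599). Of the 7 glycogen genes 2 fell, and Gbe1 (-0.50, SE 0.17) and Gys1 (-0.37, SE 0.22), the branching enzyme and the glycogen synthase, did not pass.

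**Figure D1:**
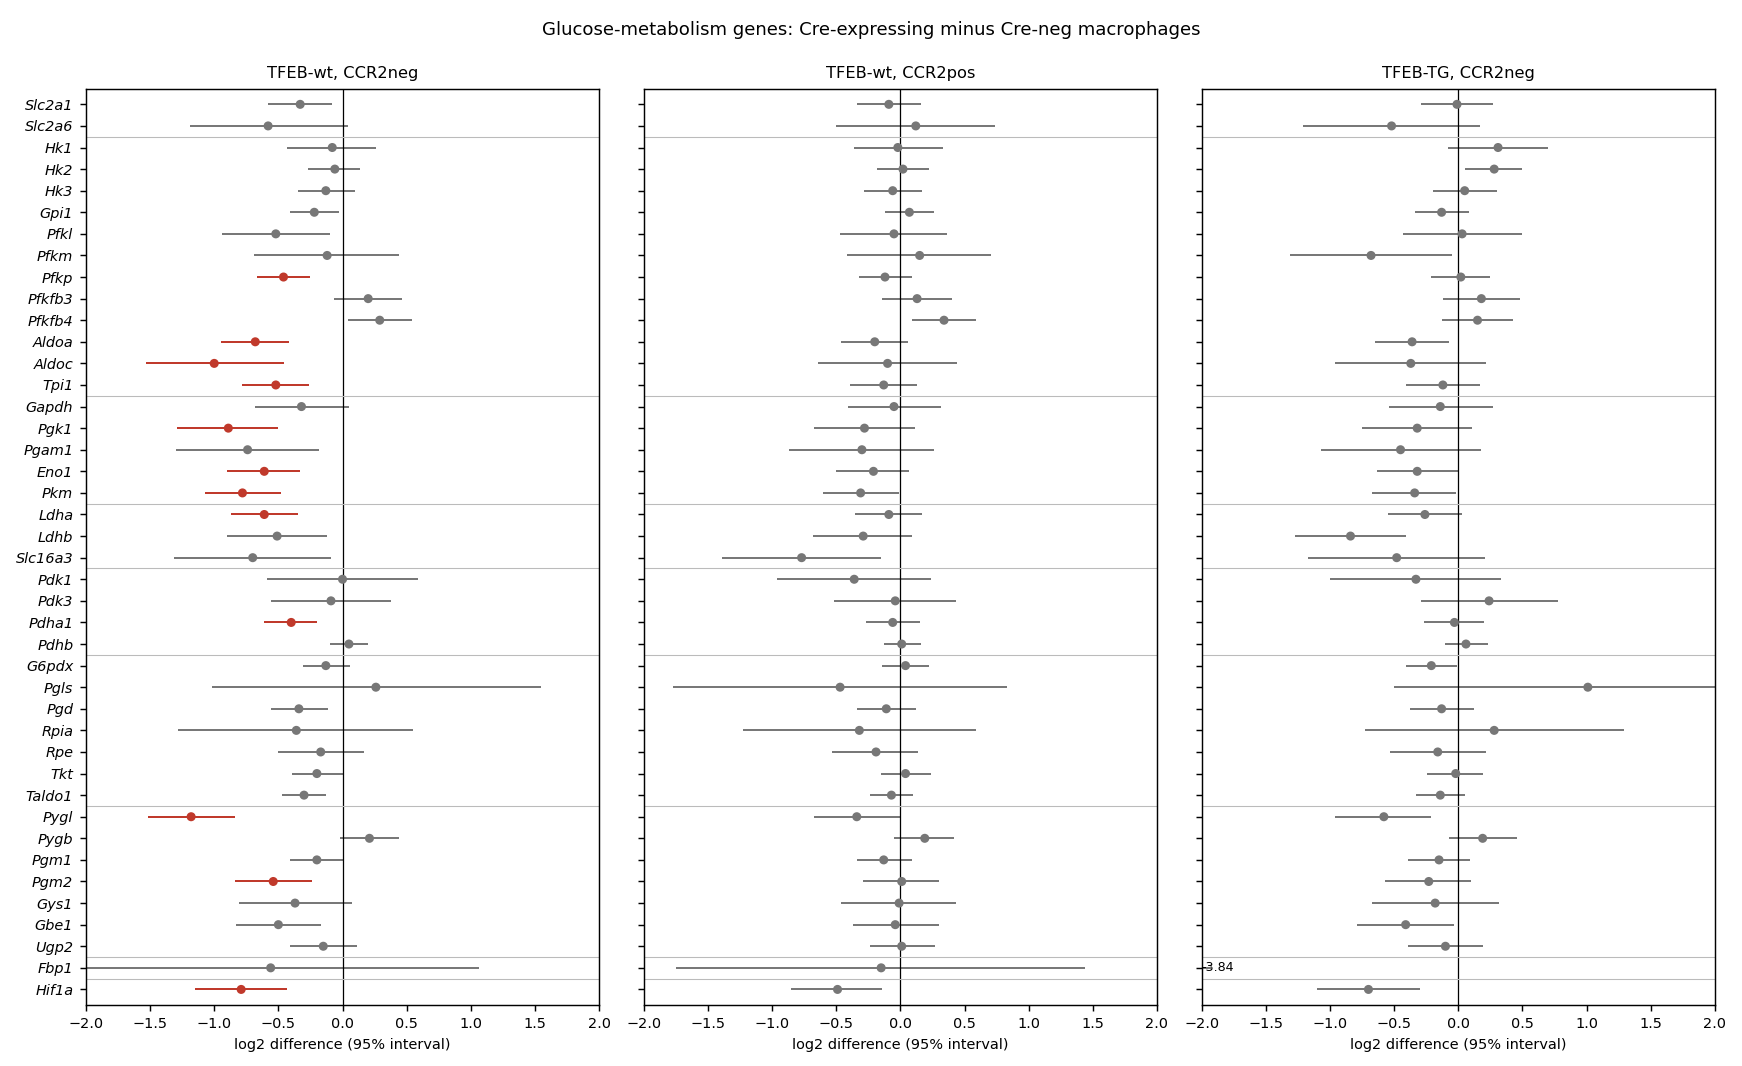
Log2 difference of each glucose gene between Cre-expressing and Cre-neg macrophages (x axis, point with 95% interval, cropped at the axis limits) in TFEB-wt CCR2neg, TFEB-wt CCR2pos and TFEB-TG CCR2neg cells, genes grouped by role (grey lines). Red marks adjusted p under 0.05: 12 genes fell in TFEB-wt CCR2neg and none passed in the other panels, where the Fbp1 value of -3.84 in TFEB-TG is printed at the edge.

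**Figure D2:**
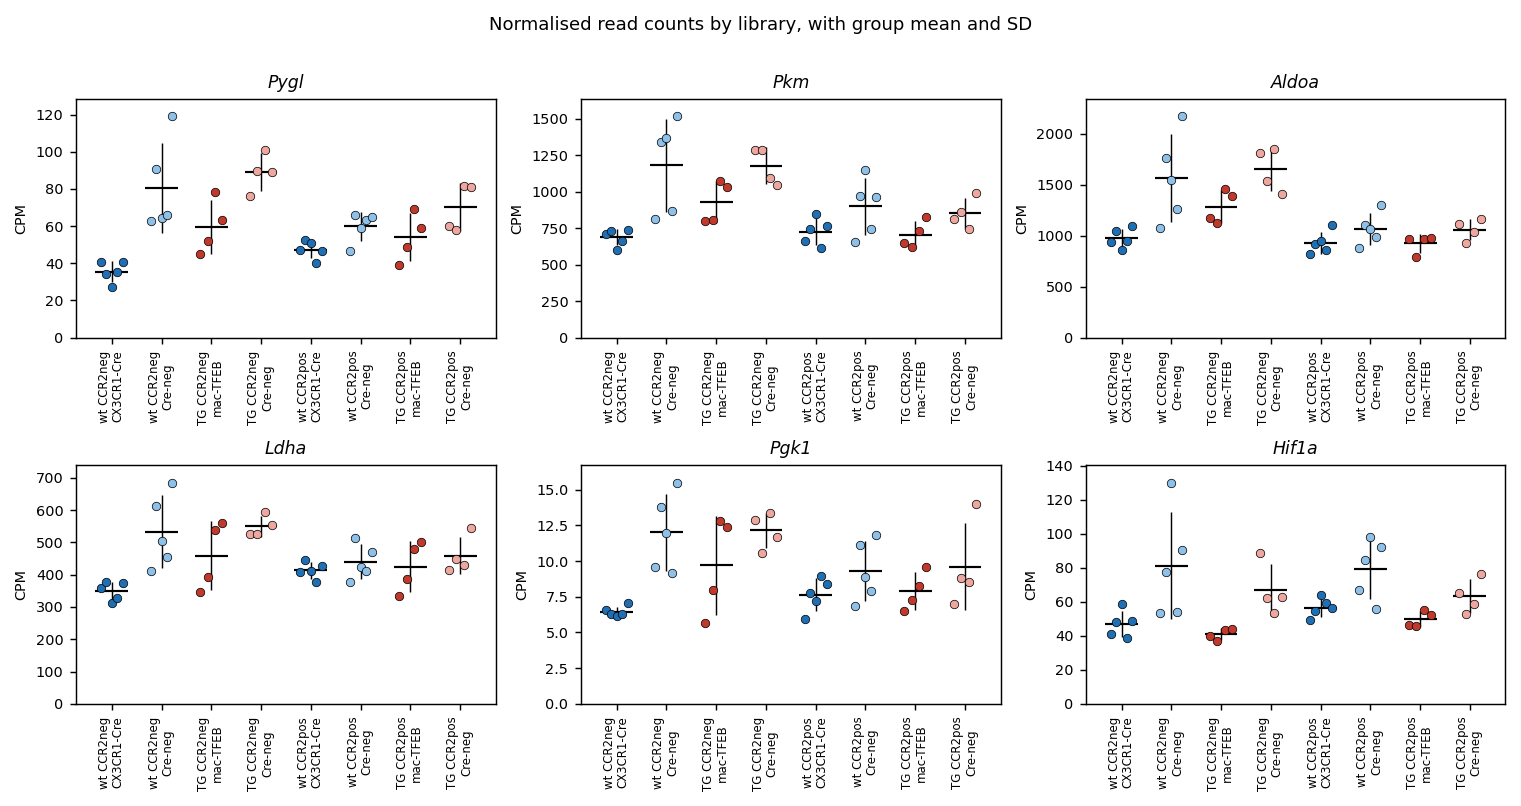
Normalised read counts (CPM, y axis) of Pygl, Pkm, Aldoa, Ldha, Pgk1 and Hif1a in each of the 36 libraries (points), with the group mean (horizontal line) and SD (vertical line) in 8 groups. Pygl in TFEB-wt CCR2neg runs from 27 to 40.8 CPM with Cre and from 62.9 to 119 CPM without.

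Counted by label number, 15 of 42 genes were lower with Cre in all 5 pairs, against 8.58% of all genes, and 7 of 42 had no overlap between groups, against 1.92%. With the label number as a block, 17 of 42 genes fell, where 7.54% of all genes passed. The 5 genes added by the block were Gbe1, Gpi1, Pgd, Slc2a6 and Taldo1. Pygl, Pkm, Aldoa, Ldha and Pgk1 passed whichever library was left out. Without Cre-neg replicate 5 the count dropped to 6 genes, and without Cre-neg replicate 2 or CX3CR1-Cre replicate 4 it was 7. In a fit to the compared groups alone 5 passed, Pygl, Ldha, Aldoc, Pgk1 and Pkm, and Aldoa lost its call. DESeq2 called 13 and limma-voom 9.

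Other measured features moved with this comparison. Cx3cr1, whose locus drives Cre, was 430 ± 103 CPM (SD, n = 5) in CX3CR1-Cre and 212 ± 52.1 CPM (SD, n = 5) in Cre-neg CCR2neg libraries, a log2 difference of 1.02 (SE 0.19, edgeR adjusted p = 0.00186). The 18 dissociation and stress genes summed to 15556 to 19920 CPM against 14303 to 17021 CPM. The 22 proliferation genes summed to 416 to 607 CPM against 331 to 440 CPM, and all 22 values were positive, with none past the test. Of the stress genes 16 of 18 values were positive and Klf6 rose (0.37, SE 0.10). Markers of other cells that passed were Itgam (-0.59, SE 0.16), 1 of 9 macrophage markers, Cd2 (-0.94, SE 0.27), 1 of 9 T and NK cell markers, and Batf3 (0.86, SE 0.18), 1 of 8 dendritic cell markers. Tpsb2, the 1 mast cell marker of 7 in the table, also passed (6.54, SE 1.58), with a median of 0.0385 CPM and a highest value of 51.3 CPM in CX3CR1-Cre libraries. The 9 fibroblast markers summed to 57.4 to 385 CPM against 73.4 to 607 CPM. Of 10 neutrophil markers 5 were in the table (Ly6g, Ltf, Camp, Ngp and Retnlg were not), and they summed to 66.3 to 92.6 CPM against 85.3 to 126 CPM with no gene called. Of the cardiomyocyte markers, 10 of 12 were in the table (Myh7 and Ryr2 were not) and summed to 45.7 to 81.0 CPM against 35.2 to 97.4 CPM. The part of any of these in the fall was not tested. Without the 3 libraries over 500 CPM of heart cell markers 13 glucose genes passed, with 2.92% of all genes. Without the 6 over 300 CPM 10 passed, with 1.34% of all genes, and Eno1 and Aldoc lost their calls. In bulk samples fewer cells of a type and less RNA per cell cannot be told apart.

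Genes of the wider pathway can be read against the 2.6% of all genes called. Of 31 other glycolysis and pyruvate genes measured, 1 fell: Gpd2, the mitochondrial glycerol 3-phosphate dehydrogenase, by 0.43 (SE 0.12). Of 26 HIF pathway genes and targets, 3 fell and none rose: Bhlhe40, a transcriptional repressor, by 1.06 (SE 0.25), Mif, a cytokine, by 0.70 (SE 0.19) and Bnip3, a mitophagy receptor, by 0.66 (SE 0.16). The 26 include Pfkfb3, Slc2a1 and Pdk1, which are also among the glucose genes described above. None of 9 other pentose phosphate genes, 21 other genes of glycogen and sugar nucleotides or 5 glucose-responsive genes passed (edgeR). At unadjusted p under 0.05 these numbers were 0, 3 and 1.

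Of the 12 genes that fell, 7 carry the core of the hypoxia response element, ACGTG on either strand, within 250 bases upstream of a RefSeq start site. It was searched because HIF-1α binds it. The 7 genes are Aldoa, Hif1a, Ldha, Pgk1, Pgm2, Pkm and Pygl. Of all 42 genes 19 had it (45.2%), against 25.1% of the 9889 table genes matched to RefSeq and 18.5% of 27025 RefSeq genes. CACGTG, the E-box core that TFEB and other factors bind and that itself contains ACGTG, was upstream of 4 of 42 genes (9.5%) and of 9.9% of table genes. The 5 windows of 45 bases printed here show the core (RefSeq, GRCm38.p6, 5′ to 3′ on the gene's strand, core of either strand in capitals, no annotated exon within them). They were chosen from the genes that fell, and a match is a description of the sequence only.
Pygl, chr12:70227790-70227834, minus strand: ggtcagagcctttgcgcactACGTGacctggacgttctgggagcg
Pgk1, chrX:106186930-106186974, plus strand: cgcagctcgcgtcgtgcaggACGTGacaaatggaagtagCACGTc
Ldha, chr7:46845736-46845780, plus strand: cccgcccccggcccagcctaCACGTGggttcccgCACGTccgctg
Aldoa, chr7:126799356-126799400, minus strand: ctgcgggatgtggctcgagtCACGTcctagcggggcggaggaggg
Hif1a, chr12:73907777-73907821, plus strand: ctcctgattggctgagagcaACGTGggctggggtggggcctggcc
Pgk1 and Ldha show the core more than once in 45 bases, and in Ldha 1 of them lies within CACGTG.

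In CCR2pos cells without the cassette no glucose gene passed (edgeR, 0.00782% of all genes). At unadjusted p under 0.05 there were 4, and DESeq2 and limma-voom called none. The values of the genes above were smaller in size: Pygl -0.34 (SE 0.17), Pkm -0.31 (SE 0.15), Hif1a -0.49 (SE 0.18), Aldoa -0.20 (SE 0.13) and Ldha -0.09. The test of the difference between fractions called no gene at all (0%). In it 11 members had an unadjusted p under 0.05, all less negative in CCR2pos. Pygl differed most (0.84, SE 0.24, edgeR adjusted p = 0.992), so a difference between the fractions was not shown. For no count at unadjusted p under 0.05 is the share of all genes given here, so none can be read against it.

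In TFEB-TG cells the comparison of mac-TFEB with Cre-neg combines Cre with TFEB. In CCR2neg no glucose gene passed (edgeR, 0.156% of all genes, 0.0703% lower and 0.086% higher). At unadjusted p under 0.05 there were 9, DESeq2 called 2 (Ldhb and Fbp1, with 0.678% of all genes) and limma-voom none. Hif1a was at 39.8, 36.8, 43.4 and 44 CPM in mac-TFEB and at 88.8, 62.4, 53.3 and 62.8 CPM in Cre-neg libraries. Ldhb was at 16, 30.1, 26.6 and 19.4 CPM against 48.8, 35.6, 49.5 and 30.9 CPM. Neither gene's groups overlapped. These were the 2 of 42 genes lower without overlap, as were 1.59% of all genes. Pygl was at 44.8, 51.9, 78.5 and 63.1 CPM against 76.2, 89.9, 101 and 89.2 CPM, with 1 mac-TFEB library inside the Cre-neg range. With the label number as a block, which pairs these libraries, 4 of 42 genes fell against 2.35% of all genes: Ldhb by 0.89 (adjusted p = 0.00483), Hif1a by 0.70 (0.00422), Pygl by 0.61 (0.00925) and Aldoa by 0.36 (0.0430). In CCR2pos none passed with or without the block (0.0156% and 0.203% of all genes), none had an unadjusted p under 0.05, and DESeq2 and limma-voom called none. There 17 of 42 genes were lower in all 4 pairs against 8.07% of all genes.

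TFEB overexpression was compared as mac-TFEB against CX3CR1-Cre. In CCR2neg cells 2 of 42 genes rose (4.76%) and none fell, where 1.38% of all genes passed and 0.922% were higher. The 4 mac-TFEB libraries of Pygl given above, from 44.8 to 78.5 CPM, lay above the CX3CR1-Cre libraries at 27 to 40.8 CPM, without overlap. It rose by 0.75 (SE 0.18, 1.68-fold, edgeR adjusted p = 0.0266). Pfkp was at 133, 135, 158 and 137 CPM against 110, 95.3, 82.4, 114 and 111 CPM, again without overlap, and rose by 0.45 (SE 0.11, 1.37-fold, edgeR adjusted p = 0.0305). Its exons share 748 bases with Pitrm1 on the opposite strand.

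Other glucose genes that were low in CX3CR1-Cre had values here that did not pass edgeR's test. Among them were Ldha 0.39 (SE 0.14), Aldoa 0.40 (SE 0.14), Pgk1 0.59 (SE 0.21), Pkm 0.43 (SE 0.16) and Tpi1 0.33 (SE 0.14). Hif1a was at -0.20. By limma-voom with quality weights, which called 10.6% of all genes, Ldha, Aldoa, Pgk1 and Pkm rose too. In the same fit Pfkfb4 (-0.46, adjusted p = 0.00341) and Pgls (-2.21, adjusted p = 0.0316) fell. With an Xist term (3.35% of all genes) Ldha, Pgk1 and Aldoa were called. The term marks libraries with Xist over 10 CPM, found in 2 of 4 TFEB-TG and 4 of 5 TFEB-wt label numbers. Pgk1, Pdha1, Pdk3 and G6pdx lie on the X chromosome. Pfkfb4, a maker of the phosphofructokinase activator, had the smallest edgeR p of the genes with negative values (-0.42, SE 0.14, edgeR adjusted p = 0.13). Both comparisons share the CX3CR1-Cre libraries, so their values are not independent. The median of the 42 genes was 0.12 against 0.01 for all genes. Pygl lost its call without mac-TFEB replicate 3 or 4 or without CX3CR1-Cre replicate 2, 3 or 4, and Pfkp without the same libraries other than CX3CR1-Cre replicate 4. The adjusted p reached 0.235 and 0.203, and in a fit to the 2 groups alone neither passed. Without the 6 libraries over 300 CPM of heart cell markers neither passed (Pygl 0.83, adjusted p = 0.0522, and Pfkp 0.49, adjusted p = 0.0639), where 1.81% of all genes did.

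**Figure D3:**
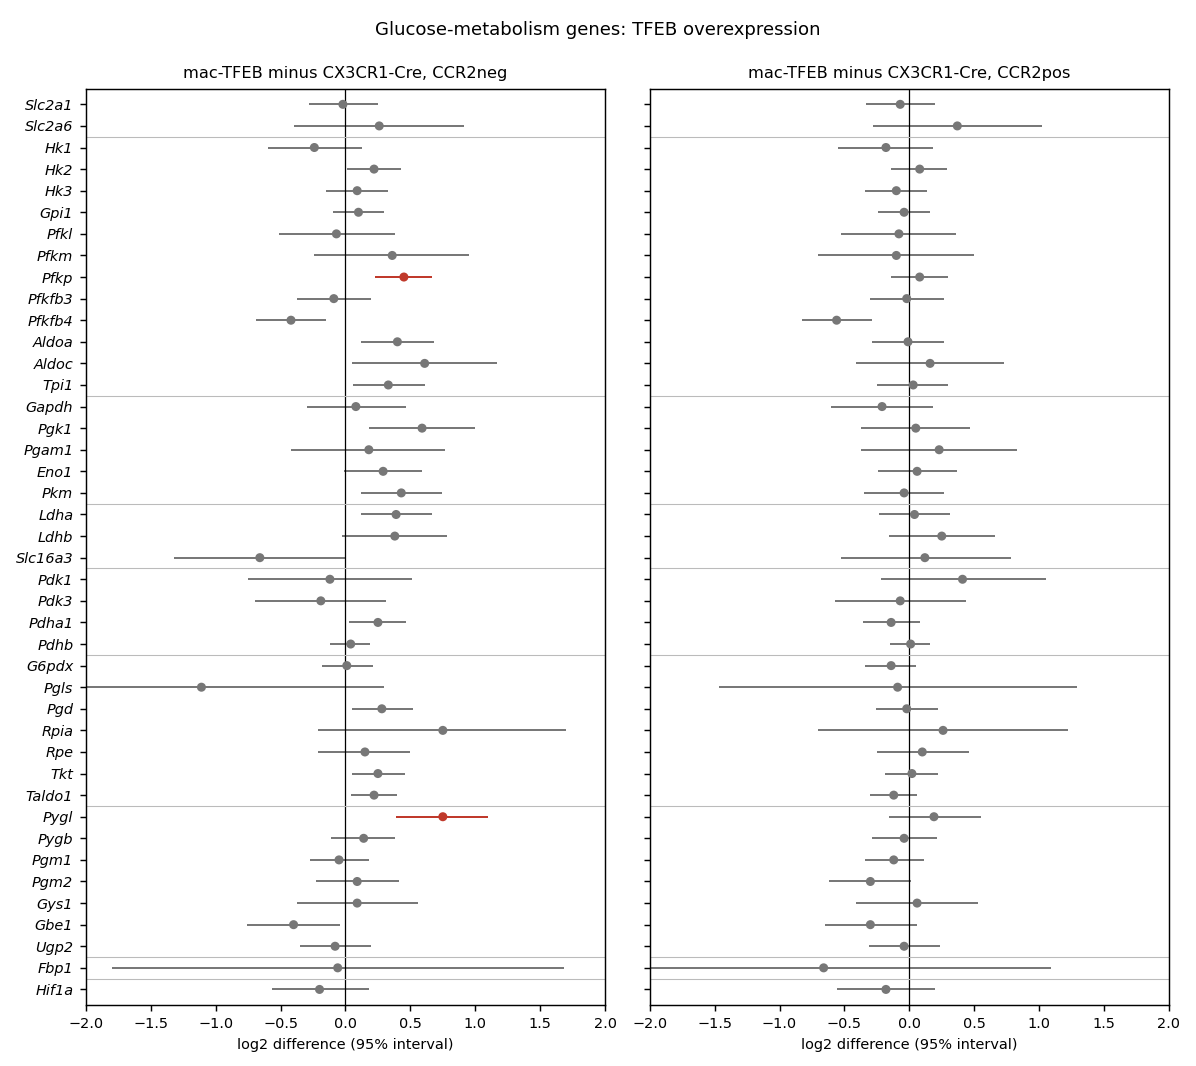
Log2 difference of each glucose gene between mac-TFEB and CX3CR1-Cre macrophages (x axis, point with 95% interval, cropped at the axis limits) in the CCR2neg and CCR2pos fractions. Red marks adjusted p under 0.05: Pygl (0.75) and Pfkp (0.45) rose in CCR2neg, and no gene passed in CCR2pos.

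Around the pathway in the same comparison, Gyg, the glycogenin that primes glycogen, rose by 0.99 (SE 0.23), and Ndrg1, a hypoxia-responsive gene, rose by 1.03 (SE 0.19). Slc16a1, a monocarboxylate transporter, fell by 0.58 (SE 0.14). The proliferation genes moved beside them: 3 of 22 rose, all 22 values were positive with a median of 0.78, and their sum was 576 to 1138 CPM against 416 to 607 CPM. This was not limited to cells with Cre. In TFEB-TG against TFEB-wt Cre-neg CCR2neg cells, Cenpe (1.13) and Kif20a (0.97) were called higher, where 0.406% of all genes passed. Their proliferation sums were 418 to 838 CPM and 331 to 440 CPM. The dissociation and stress genes had 17 of 18 negative values, with Socs3 called (-0.83, SE 0.18). Of the cell markers C1qa, 1 of 9 for macrophages (-0.76, SE 0.20), Batf3, 1 of 8 for dendritic cells (-1.08, SE 0.19), and the mast cell gene Tpsb2 (-6.56, SE 1.74) fell. The part of any of these in the glucose genes was not tested.

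In CCR2pos cells no glucose gene passed for TFEB (edgeR, 0.0391% of all genes, 0.0234% lower). Only Pfkfb4 had an unadjusted p under 0.05 (-0.56, SE 0.14, adjusted p = 0.234), and DESeq2 and limma-voom each called it (adjusted p = 0.0394 and 0.0104). Pygl was at 39.1, 48.9, 69.1 and 59.2 CPM in mac-TFEB against 46.9, 52.5, 50.7, 40.2 and 46.6 CPM, with full overlap (0.19, SE 0.18). The test of the difference in TFEB effect between fractions called no gene (0%). In it Pygl differed by -0.55 (SE 0.26), and 5 members had an unadjusted p under 0.05, all lower in CCR2pos. The share of all genes at that limit is not given here, so a difference between the fractions was not shown.

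The cassette alone was tested as TFEB-TG against TFEB-wt Cre-neg cells. No glucose gene passed in CCR2neg (edgeR, 0.406% of all genes, 0.367% lower) or CCR2pos (0.0313%). At unadjusted p under 0.05 there were 10 and 2. In CCR2neg DESeq2 called Ldhb (0.71) and Hk1 (-0.63), limma-voom called Hk1, and in CCR2pos neither called any. Without TFEB-TG Cre-neg replicate 1 alone 4 passed, and 1 passed without TFEB-TG Cre-neg replicate 2 or TFEB-wt Cre-neg replicate 2. Without the 3 libraries over 500 CPM of heart cell markers, 5 of 42 genes were lower with the cassette in CCR2neg, where 3.64% of all genes passed. They were Slc16a3 (-1.49), Pfkl (-0.99), Pdk3 (-0.98), Hk1 (-0.90) and the glucose transporter Slc2a1 (-0.52). Without the 6 libraries over 300 CPM these 5 genes also passed (3.58% of all genes). TFEB beyond the cassette, the difference between these comparisons and those of TFEB, called no gene in CCR2neg or CCR2pos (0% in each, edgeR), and no glucose gene by DESeq2 or limma-voom. In it 5 and 0 members had an unadjusted p under 0.05, and Pfkp differed by 0.48 (SE 0.16) and Pygl by 0.60 (SE 0.26) in CCR2neg.

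Between the sorted fractions, averaged over the 4 states, 7 glucose genes were lower in CCR2pos and 2 were higher, 9 of 42 or 21.4%, where 13.9% of all genes passed, 6.41% lower and 7.45% higher. Aldoa ran from 788 to 1298 CPM with a median of 973 in CCR2pos and from 859 to 2171 CPM with a median of 1326 in CCR2neg libraries. It was lower in 16 of 18 same-numbered pairs and fell by 0.43 (SE 0.07, edgeR adjusted p = 4.0e-05). The 18 pairs come from 9 label numbers, each with and without Cre, so they may not be independent. The share of all genes is not given for such pair counts. Pgd, the NADPH-forming phosphogluconate dehydrogenase, ran from 261 to 397 CPM against 287 to 548 CPM. It was lower in 17 of 18 pairs and fell by 0.27 (SE 0.06, adjusted p = 0.00216). Pkm (-0.30, SE 0.08), Eno1 (-0.25, SE 0.08), Aldoc (-0.56, SE 0.14), Pfkp (-0.18, SE 0.06) and Taldo1 (-0.13, SE 0.05) also fell.

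The table's Pgm1, RefSeq's Pgm2, rose by 0.22 (SE 0.06, edgeR adjusted p = 0.00778) and was higher in CCR2pos in 18 of 18 pairs, at 40.2 to 64.0 CPM against 32.9 to 52.4 CPM. Pfkfb3 rose by 0.21 (SE 0.07, edgeR adjusted p = 0.0458). Hk2, the inducible hexokinase, was higher in 16 of 18 pairs but did not pass without the block (0.14, SE 0.05, edgeR adjusted p = 0.0944). With the replicate block it did (0.13, adjusted p = 0.0244), where 21.1% of all genes passed. Ldha (-0.10, SE 0.07) and Hif1a (0.11, SE 0.10) did not pass either. Other lists moved as well, where 13.9% of all genes passed. Called genes of the wider glucose and HIF pathways went both ways. Slc16a1 (0.48), Gpd1 (0.56), Gpd2 (0.25), Mxi1 (0.29) and Arnt (0.18) were higher in CCR2pos. Eno3 (-0.51), P4ha2 (-0.74), Ankrd37 (-0.62), Txnip (-0.34), Mlxipl (-1.08) and Gyg (-0.36) were lower. Of 18 dissociation and stress genes 5 were higher in CCR2pos, and of 22 proliferation genes 4 were lower (Kif20a, Ccnb2, Cenpf and Cenpe). Markers called higher were 4 of 8 for dendritic cells (Cd209a, Flt3, Xcr1 and Batf3), 2 of 6 for B cells (Cd79b and Ighm), 2 of 9 for macrophages (Cd14 and Fcgr1) and 1 of 5 for neutrophils (Csf3r). Of 6 mural markers Cspg4 was lower (-2.16, SE 0.45). The part of these in the glucose genes was not tested. Pfkfb3 lost its call in 22 and Taldo1 in 25 of the 36 fits that left out 1 library. Aldoa, Pgd, Aldoc, Pgm1 and Pkm passed whichever library was left out.

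**Figure D4:**
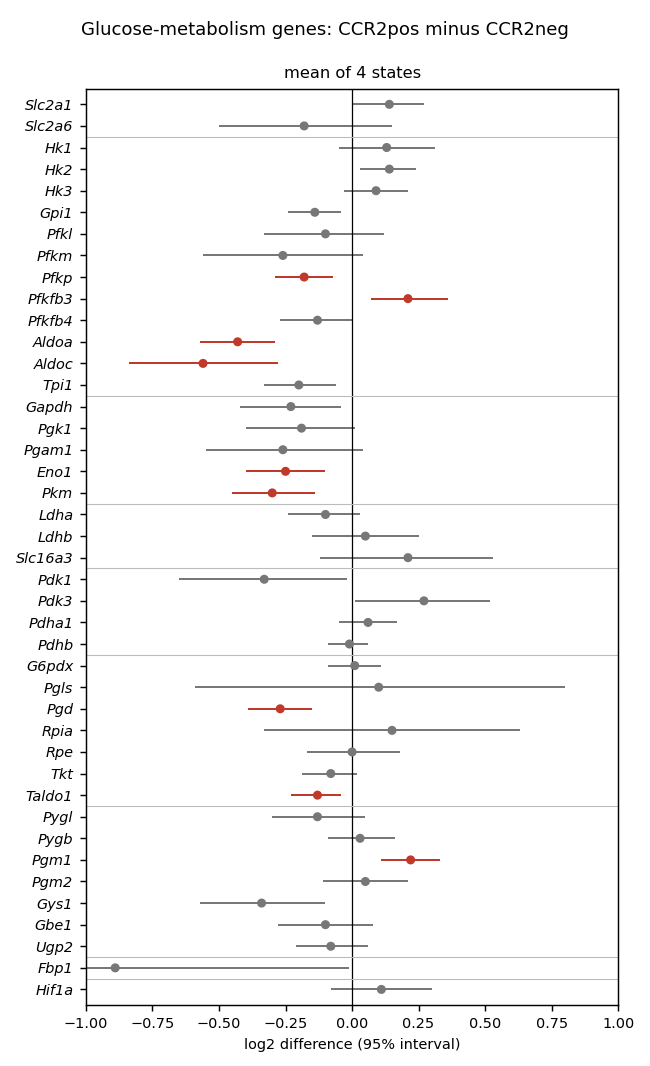
Log2 difference of each glucose gene between CCR2pos and CCR2neg macrophages, averaged over the 4 states (x axis, point with 95% interval, cropped at the axis limits), genes grouped by role. Red marks adjusted p under 0.05: 7 genes, among them Aldoa (-0.43) and Pgd (-0.27), were lower in CCR2pos, and Pgm1 (0.22) and Pfkfb3 (0.21) were higher.

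Within single states few genes passed. In TFEB-wt Cre-neg, Aldoa (-0.55, SE 0.13, adjusted p = 0.0197) and Aldoc (-1.01, SE 0.27, adjusted p = 0.0405) fell, 2 of 42 genes against 2.35% of all genes (0.821% lower, 1.53% higher). Aldoa lost this call without CCR2pos replicate 1 or CCR2neg replicate 2 or 5, with an adjusted p of up to 0.119, and Aldoc lost it in 6 of 10 such fits. In TFEB-TG Cre-neg, Aldoa (-0.64, SE 0.15, adjusted p = 0.0123) and Fbp1 fell, 2 of 42 against 3.26% (0.789% lower, 2.47% higher), and Aldoa had an adjusted p of 0.0524 without CCR2pos replicate 2. In CX3CR1-Cre cells none passed (edgeR, 0.797% of all genes, 4 at unadjusted p under 0.05, none by DESeq2 or limma-voom), and Aldoa was at -0.07 (SE 0.13). In mac-TFEB cells none passed (edgeR, 0.539%, 5 at unadjusted p under 0.05, none by DESeq2 and 1 by limma-voom), and Aldoa was at -0.48 (SE 0.15).

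The label block changed these counts. With it, 2 genes were higher in CCR2pos in CX3CR1-Cre (Pdha1 0.32 and Pygl 0.42, where 4.31% of all genes passed) and 2 were lower in mac-TFEB (Aldoa -0.48 and Pgd -0.37, 3.76%). In TFEB-TG Cre-neg 6 passed (9.60%): Aldoa (-0.64), Pkm (-0.48), Eno1 (-0.38) and Pgd (-0.35) were lower and Hk1 (0.53) and Pdk3 (0.65) higher, while Fbp1 lost its call.

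Some genes turned on single libraries. Fbp1 was at 26.2 CPM in TFEB-TG CCR2neg Cre-neg replicate 1 and between 0.197 and 1.13 CPM in the other 3, and its fall in CCR2pos there (-4.52, SE 1.02, edgeR adjusted p = 0.00855) had an adjusted p of 0.537 without that library. Pfkm, the muscle-type phosphofructokinase, was at 64.6 CPM in the same library and between 12.5 and 13.3 CPM in the others. This is the library with 516 CPM of cardiomyocyte markers, against 32.1 to 58.4 CPM in the other 3, and the part of these cells was not tested. Pgls, the phosphogluconolactonase, split within groups: in TFEB-TG CCR2neg mac-TFEB it was at 26.7, 23.6, 4.18 and 3.13 CPM, and in TFEB-wt CCR2pos CX3CR1-Cre at 3.5, 34.1, 11.3, 32.7 and 4.39 CPM. Its exons share 776 bases with Fam129c on the same strand. Pfkm, Pgls, Ldhb and Pgm2 were chosen for description after their values were seen.

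**Figure D5:**
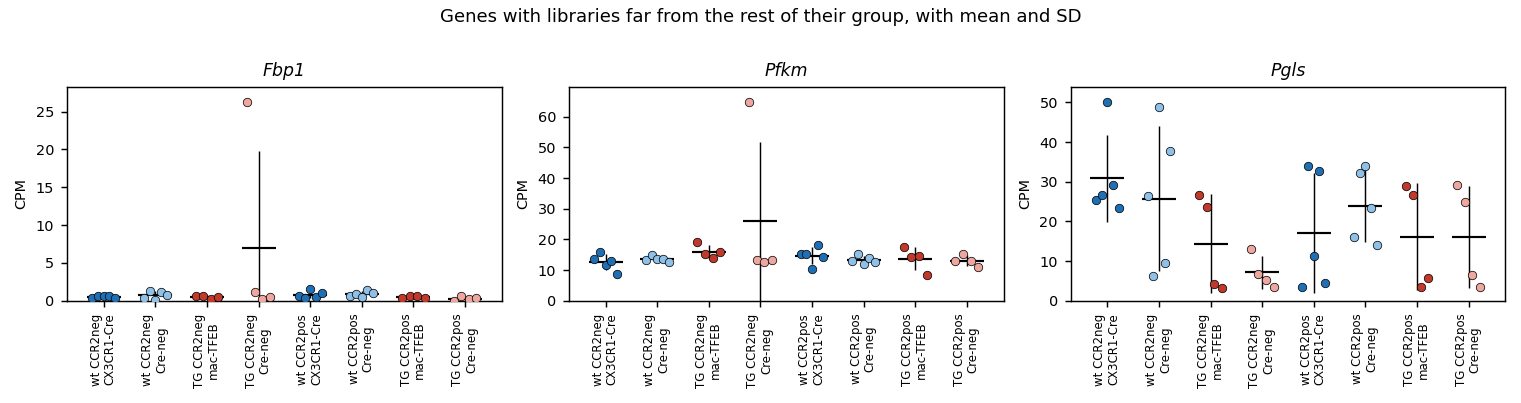
Normalised read counts (CPM, y axis) of Fbp1, Pfkm and Pgls in each of the 36 libraries (points), with the group mean and SD (lines) in 8 groups. A single TFEB-TG CCR2neg Cre-neg library holds 26.2 CPM of Fbp1 and 64.6 CPM of Pfkm, and Pgls ranges from 3.13 to 50.0 CPM over all libraries.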

How the data were processed

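PolyA RNA of 36 libraries was made into cDNA from total RNA and sequenced as single reads of 50 bases without strand information, per the labels' protocols. The submitters' processing notes name TopHat2 2.0.10, TopHat, Bowtie2, HTSeq, edgeR, DESeq and build GRCm38, with no roles. The authors deposited raw read counts per gene for 12795 genes. The sources used here do not give how these genes were selected.

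CPM and log2 values were computed from these counts with edgeR 4.0.16 (R 4.3.3): TMM normalisation, a single quasi-likelihood fit with a mean for each of the 8 groups, and p-values adjusted after Benjamini-Hochberg over 12795 genes. Genes were called at an adjusted p under 0.05, and the filter (minimum count 10) removed none. The common dispersion was 0.0943. An SE is the log2 difference divided by the square root of F, and intervals are normal at 95%. No 2 libraries of a group were copies: over 64 pairs the chi-square of their counts was 20.3 to 121 times its degrees of freedom. Positions and exon lengths come from GENCODE vM21, and promoters from RefSeq GRCm38.p6, with windows assigned to table genes by position.

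The main fit used group means without a block, so its SEs and p-values were unpaired in every comparison. Pairing was used in the alternative fits with a block and in the counts of same-numbered pairs. Same-numbered libraries of a genotype met the pairing limit where every pair's deviations correlated above 0.1. This held in 7 comparisons (lowest 0.14 to 0.383) and failed for the fraction in TFEB-wt Cre-neg (0.0958) and for TFEB-TG against TFEB-wt (down to -0.416). Genes were described by library when called in a comparison and among the 10 smallest p of its called glucose genes. Members and lists were chosen with earlier results of these data known. Alternatives were DESeq2 1.42.0 (size factors, Wald test), limma 3.58.1 voom, other filters, a block, an Xist term and leaving out libraries. Every limma-voom result used quality weights per library. The scripts were tested on simulated data.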

Additional observations from a re-analysis of the deposited data

Results flagged for a closer look

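In 7 of 152 groups examined, over 19 genes, 1 library lay far from the rest of its group. Pfkm and Pgls were chosen after their values were seen, so this number cannot be compared with a chance rate. Fbp1 at 26.2 CPM and Pfkm at 64.6 CPM were both high in TFEB-TG CCR2neg Cre-neg replicate 1, where the other 3 libraries had 0.197 to 1.13 and 12.5 to 13.3 CPM. Pgls at 50 CPM was high in TFEB-wt CCR2neg CX3CR1-Cre replicate 3, above 23.3 to 29.1 CPM. Pfkp at 158 CPM was high in TFEB-TG CCR2neg mac-TFEB replicate 3, above 133 to 137 CPM, and Pfkp lost its TFEB call without it. Taldo1 at 353 CPM was high in TFEB-wt CCR2pos CX3CR1-Cre replicate 5, above 296 to 307 CPM. In TFEB-TG CCR2pos mac-TFEB, Aldoa at 788 CPM was low in replicate 2, below 964 to 979 CPM, and Pgm1 at 41.1 CPM was low in replicate 4, below 44.4 to 44.6 CPM.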

How the results depend on the processing

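Of 27 calls of single glucose genes, 10 held whichever library was left out, and none of 757 recomputed values reversed. Of 169 other recomputed counts, 142 stayed within 1.5 times. The 142 include counts of 0 that stayed at 0. The fit without a filter repeats the main fit, since the filter removed no gene. The number is therefore no measure of how stable the calls were. Leaving out 1 library gave 0 to 3 calls for TFEB in CCR2neg, 0 to 4 for the cassette in CCR2neg, 6 to 12 for the mean fraction difference, 0 to 3 and 1 to 3 for the fractions in TFEB-wt and TFEB-TG Cre-neg, and 6 to 14 and 0 to 1 for Cre status in TFEB-wt and TFEB-TG CCR2neg. Among all genes these calls were 59 to 260, 6 to 440, 1588 to 1830, 165 to 285 and 249 to 608 in that order. For Cre status they were 195 to 388 and 7 to 32. Calls for TFEB in CCR2neg were 8 with limma-voom (10.6% of all genes, against 1.38%), 5 with the Xist term (3.35%), 0 in the compared groups alone and 0 without the 6 libraries over 300 CPM of cardiomyocyte or fibroblast markers (1.81%). TFEB in CCR2pos had 1 with DESeq2 and with limma-voom (0.154% and 0.0703% of all genes). The cassette in CCR2neg had 2 with DESeq2, 1 with limma-voom, 2 with the Xist term and 5 without the 3 libraries over 500 CPM or the 6 over 300 CPM of these markers. All genes called there were 0.406%, and 2.93%, 0.797%, 2.23%, 3.64% and 3.58% in that order. Fraction calls were 1 in mac-TFEB (2.24% of all genes) and 1 in TFEB-wt Cre-neg (3.06%) with limma-voom. In TFEB-wt Cre-neg they were 1 without the 3 or the 6 libraries (1.7% and 1.65%) and 0 in the compared groups alone. In TFEB-TG Cre-neg they were 1 with the stricter filter, which left Fbp1 untested, and 0 in the compared groups alone. Cre status had 5 calls in TFEB-wt CCR2neg in the compared groups alone and 2 in TFEB-TG CCR2neg with DESeq2 (0.678% of all genes). Elsewhere the cause was not tested.

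With the replicate block, calls were 2 for the fraction in CX3CR1-Cre, 2 in mac-TFEB, 6 in TFEB-TG Cre-neg, 17 and 4 for Cre status in TFEB-wt and TFEB-TG CCR2neg. Where libraries shared only a number or missed the pairing limit, the block gave 3 for TFEB in CCR2neg, 1 for the cassette in CCR2neg, 9 for the fraction in TFEB-wt Cre-neg and 15 for the mean fraction difference. There 2.42%, 0.868%, 6.31% and 21.1% of all genes passed, in that order. Genes of a few CPM (Fbp1, Rpia, Pgam1) rest on few reads.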
